A study of Arabidopsis thaliana with 4 samples.

Results

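MOL1 (MORE LATERAL GROWTH1, AT5G51350) and RUL1 (REDUCED IN LATERAL GROWTH1, AT5G05160) are 2 of the 33316 loci listed in RNA sequencing libraries from the stem of Arabidopsis thaliana. They were taken by locus number from the table of each library. The mutant mol1-1, in the Col-0 background, was compared with wild-type Col-0 plants (WT), with 2 libraries per genotype. Each library was made from 1 cm of stem base above the rosette of plants 15 to 20 cm tall, which had grown for 3 weeks under 8 h of light before transfer to 16 h. The sources used here do not say what the mol1-1 lesion is or where in the gene it lies. Nothing in the labels says how many plants entered a library, so p-values measure the spread between these libraries, which may be technical.

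Both genes encode receptor-like kinases with leucine-rich repeats (LRRs). Such proteins carry an outer repeat domain that can bind a ligand, a single membrane span and an inner kinase domain that passes the signal on. The stem thickens by division of the cambium, which gives xylem to the inside and phloem to the outside, and the genes were named for opposite effects on that process. The reference annotation lists MOL1 as a repressor and RUL1 as an activator of secondary growth. MOL1 belongs to LRR subfamily XI, which also holds the TDIF peptide receptor PXY and the meristem receptor CLAVATA1, and RUL1 belongs to subfamily III.

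The genes share a simple structure with 2 exons. In the RefSeq annotation of build TAIR10.1, MOL1 lies on the minus strand at chr5:20867599-20870848, with exon 1 at 20868245 to 20870848 and exon 2 at 20867599 to 20868170. RUL1 lies on the plus strand at chr5:1527768-1530205, with exon 1 at 1527768 to 1529299 and exon 2 at 1529395 to 1530205. The coding sequence gives 895 residues for MOL1 and 640 for RUL1. Exon 2 holds 11.6% of the coding sequence of MOL1 and 32.4% of that of RUL1. In each gene the single intron splits a codon after its first base, in codon 793 of MOL1 and codon 434 of RUL1. The deposited files list 2 exons for each gene, with 3070 exon bases for MOL1 and 1993 for RUL1, against 3176 and 2343 in this annotation.

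The introns are shown because a read counted as an exon-exon read must join the sequences on either side of them, and these reads are the only ones in the files that show splicing. They are from the RefSeq assembly TAIR10.1, written 5′ to 3′ along the transcript, with the intron in capitals and 30 coding bases of each exon in lower case. The MOL1 stretch is chr5:20868141-20868274 on the minus strand and the RUL1 stretch is chr5:1529270-1529424 on the plus strand.
MOL1: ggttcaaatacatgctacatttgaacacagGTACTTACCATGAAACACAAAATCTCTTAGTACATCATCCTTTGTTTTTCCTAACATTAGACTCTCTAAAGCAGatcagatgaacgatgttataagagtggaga
RUL1: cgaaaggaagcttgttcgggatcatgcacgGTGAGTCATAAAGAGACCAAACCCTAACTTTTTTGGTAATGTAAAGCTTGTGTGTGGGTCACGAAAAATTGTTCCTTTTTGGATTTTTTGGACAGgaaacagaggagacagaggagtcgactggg
The introns are 74 bases long in MOL1 and 95 bases in RUL1. Each begins with GT and ends with AG, and A and T make up 66.2% of the MOL1 intron and 63.2% of the RUL1 intron.

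The libraries held between 28017346 and 37059413 exon reads. The cambium markers PXY, WOX4, ANT and SMXL5 were all present, with summed levels of 190 and 204 RPKM in mol1-1 and 200 and 206 RPKM in WT (exon reads per kilobase, scaled to the library's gene reads). The 6 xylem and fibre markers and the 4 phloem markers were all present too, and none of these was called (edgeR, lowest adjusted p 0.997). The summed xylem and fibre level was 2892 and 1765 RPKM in mol1-1 replicates 1 and 2 and 2156 and 2857 RPKM in WT replicates 1 and 2, so the spread within a genotype exceeded the difference between genotypes. The 3 root hair markers were at 0 reads. The 3 floral organ markers in the files summed to 0.287 and 0.161 RPKM in mol1-1, and to 1.36 and 0.0857 RPKM in WT replicates 1 and 2. The 4 epidermal markers summed to 224 and 187 RPKM in mol1-1 and to 256 and 272 RPKM in WT, with 3 of them tested, all at a log2 fold change below 0 and none called (lowest adjusted p 0.624). The part of tissue makeup in the values that follow was not tested. In such bulk samples, fewer cells of a type and less RNA per cell cannot be told apart.

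The targeted gene was lower in the mutant and was still detected. MOL1 had 342 and 264 exon reads in mol1-1 replicates 1 and 2, against 938 and 825 in WT replicates 1 and 2. All of these reads were unique, so none was shared with a related locus. The level per length was 2.957 and 2.962 RPKM in mol1-1 and 9.75 and 9.43 RPKM in WT. The mutant libraries were nearly equal in RPKM and both were below both WT libraries, as was the case for 16.8% of the 19024 genes tested. MOL1 fell by 1.66 on the log2 scale (SE 0.12, 95% interval -1.97 to -1.36, edgeR quasi-likelihood test, adjusted p 0.0217), which left 31.6% of the WT level, with an interval of 25.5% to 39.0%. Among all tested genes 0.0105% were called lower and 0.189% higher in mol1-1, and by log2 fold change MOL1 ranked 34th from the bottom. In the order of all tested genes by RPKM it stood above 20.9% and 20.6% of genes in the mutant libraries and above 44.6% and 44.9% in the WT libraries.

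RUL1 was the more abundant gene in every library and was not called as changed. It had 1506 and 1239 exon reads in mol1-1 and 1738 and 1297 in WT, all of them unique. The level was 20.1 and 21.4 RPKM in mol1-1 and 27.8 and 22.8 RPKM in WT. The groups did not overlap, but they were separated by less than the WT libraries differed from each other. Groups without overlap, in either direction, occurred for 33.7% of the tested genes. The log2 fold change of RUL1 was -0.26 (SE 0.13, adjusted p 0.948 in the same fit), with a 95% interval of -0.59 to 0.07. On a linear scale this spans 66.6% to 105% of the WT level. Of all tested genes, 11.8% had a lower log2 fold change and 0.2% were called in either direction.

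The WT library with the most RUL1, replicate 1, was also the one with the highest floral marker sum. Without it the log2 fold change of RUL1 was -0.14 (SE 0.23), and without WT replicate 2 it was -0.35 (SE 0.23). Whether the makeup of that library bears on the RUL1 value was not tested. In TAIR10.1 the last 74 bases of RUL1, chr5:1530132-1530205, overlap CEV1 (AT5G05170) on the opposite strand. CEV1, which encodes a cellulose synthase of the primary wall, had 351 and 270 RPKM in mol1-1 and 322 and 361 RPKM in WT. The deposited RUL1 model has 1993 exon bases, of which 1923 would be coding by TAIR10.1, and where it ends is not given, so it is not known whether the counted exons reach the overlap. Strand use is not stated either, and the part of CEV1 reads in the RUL1 values was not tested.

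**Figure D1:**
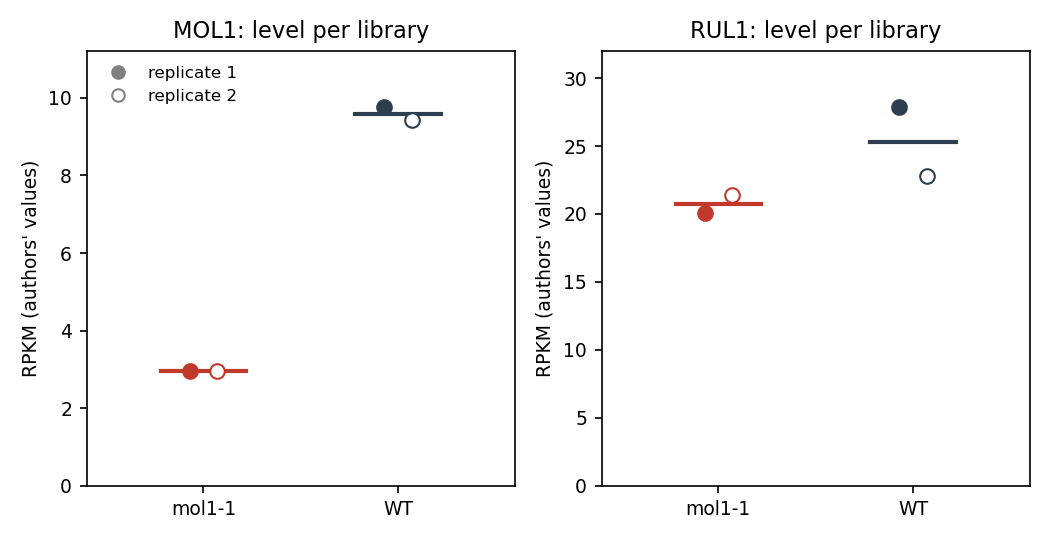
Levels of MOL1 (left) and RUL1 (right) in RPKM, as deposited by the authors, for mol1-1 and WT. Circles are single libraries (filled, replicate 1; open, replicate 2) and horizontal lines are means of 2 libraries. MOL1 lies at 2.957 and 2.962 RPKM in mol1-1, below its WT values of 9.75 and 9.43, while the RUL1 groups lie close together and WT replicate 1 stands highest at 27.8.

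The ratio of the 2 genes within a library does not depend on how libraries are scaled. MOL1 had 0.227 and 0.213 exon reads per RUL1 read in mol1-1, against 0.540 and 0.636 in WT. Per length, RUL1 was 6.78 and 7.23 times the level of MOL1 in mol1-1 and 2.85 and 2.42 times in WT. The log2 ratio of MOL1 to RUL1 reads averaged -2.18 ± 0.0650 in mol1-1 and -0.77 ± 0.168 in WT (SD, n = 2 each). The difference of -1.41 was larger than the spread within either genotype, and the exact two-sided permutation p was 0.333, the smallest that 2 against 2 libraries allow.

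Spliced MOL1 reads were fewer in mol1-1. There were 6 and 1 exon-exon reads in mol1-1, against 16 and 23 in WT, all of them unique. The fit over all exon-exon reads, scaled by the exon fit, gave a log2 fold change of -2.59 (SE 0.69, 95% interval -4.19 to -0.98), with an unadjusted p of 0.00627 by edgeR and an adjusted p of 1.00. Of the 13793 loci in that fit 0% were called by edgeR, while 3.47% had an unadjusted p under 0.05, and DESeq2 called 20 of 13786, MOL1 not among them. Without mol1-1 replicate 1, which leaves the library with 1 spliced read as the only mutant, the adjusted p was 0.0140 at a log2 fold change of -4.09. The interval of the spliced reads contains the fold change of the exon reads.

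The spliced share of the remaining MOL1 reads could not be separated from that in WT at this depth. Exon-exon reads were 1.75% of exon reads in mol1-1 replicate 1 (95% exact binomial interval 0.646% to 3.78%) and 0.379% in replicate 2 (0.00959% to 2.09%). In WT the shares were 1.71% (0.978% to 2.76%) and 2.79% (1.78% to 4.15%). The groups overlapped and the exact permutation p was 0.667. These intervals cover counting error only. The files do not split exon reads between the exons, so a transcript that is cut short cannot be told from one of full length.

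Because the share depends on exon length, it was also expressed in bases, as exon-exon reads per exon read times exon length. For MOL1 this gave 53.9 and 11.6 bases in mol1-1 and 52.4 and 85.6 bases in WT. Loci with 2 exons, 1 transcript and at least 200 exon reads had medians of 53.1 and 46.8 bases in the mol1-1 libraries and 53.1 and 53.9 bases in the WT libraries. MOL1 in mol1-1 replicate 1 was thus close to the median of such loci. The value in mol1-1 replicate 2 rests on 1 read and lay below their lower quartile of 29.9 bases.

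The spliced share of RUL1 was slightly lower in both mutant libraries, but within the counting intervals of the WT libraries. The gene had 56 and 45 exon-exon reads in mol1-1 and 75 and 56 in WT, which edgeR put at -0.49 on the log2 scale (SE 0.26, 95% interval -1.09 to 0.11, adjusted p 1.00). The spliced share was 3.72% and 3.63% of exon reads in mol1-1 and 4.32% and 4.32% in WT. The groups did not overlap, with an exact permutation p of 0.333, the smallest that 2 against 2 libraries allow. Each mutant value lay within the interval of each WT library, 3.41% to 5.38% and 3.28% to 5.57%. How many other loci have spliced shares without overlap was not computed. In bases, RUL1 stood at 74.1 and 72.4 in mol1-1 and 86.0 and 86.1 in WT, above the upper quartile of 2-exon loci in every library, which ranged from 66.7 to 73.6 bases.

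Reads within the introns were rare. MOL1 had 0 intron reads in both mol1-1 libraries, and 1 and 0 in WT, too few for a test. A count of 0, taken to allow up to 3 reads, leaves room for up to 0.877% and 1.14% of the exon reads of the mutant libraries. RUL1 had 16 and 4 intron reads in mol1-1 and 12 and 9 in WT. Its log2 fold change over intron reads was -0.22 (SE 0.65, 95% interval -1.66 to 1.22, edgeR adjusted p 0.991 among 3130 loci), an interval too wide to show a change of 2-fold in either direction. In that fit edgeR called 0% of loci, 6.33% had an unadjusted p under 0.05, and DESeq2 called 4. The median depth over the gene, as listed in the files, was 5 and 3 reads for MOL1 in mol1-1 and 14 and 13 in WT. For RUL1 it was 35 and 25 in mol1-1 and 37 and 29 in WT. Set against the read count, as median depth times exon length per exon read, MOL1 had 44.9 and 34.9 bases in mol1-1 and 45.8 and 48.4 bases in WT. The groups did not overlap (exact permutation p 0.333, the smallest that 2 against 2 libraries allow), and mol1-1 replicate 1 lay within 1 base of WT replicate 1. The depths are whole numbers, so at 5 and 3 reads a step of 1 read is a large part of the value. How many other loci have groups without overlap on this measure was not computed, so no difference is read from it.

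**Figure D2:**
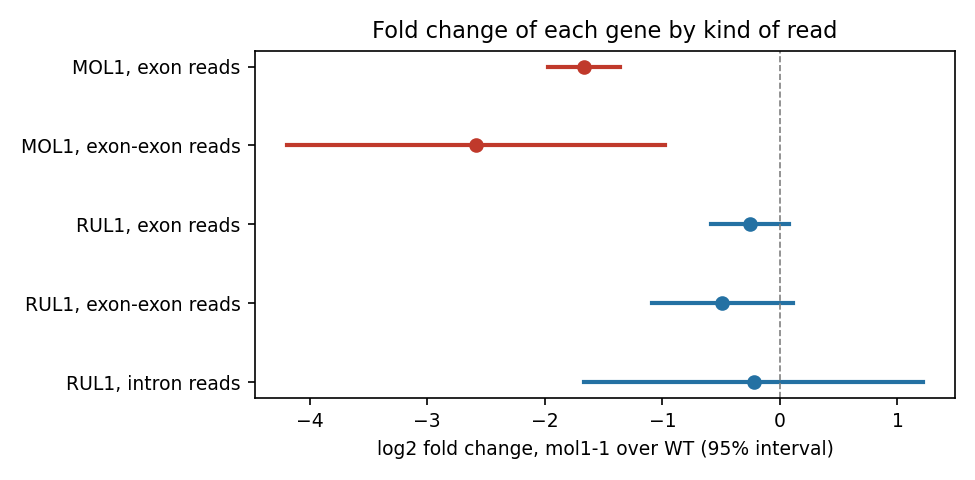
Log2 fold change of mol1-1 over WT, with 95% intervals, for MOL1 (red) and RUL1 (blue) by kind of read. The MOL1 intervals lie below 0 for exon reads (-1.97 to -1.36) and exon-exon reads (-4.19 to -0.98), and all 3 RUL1 intervals include 0.

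**Figure D3:**
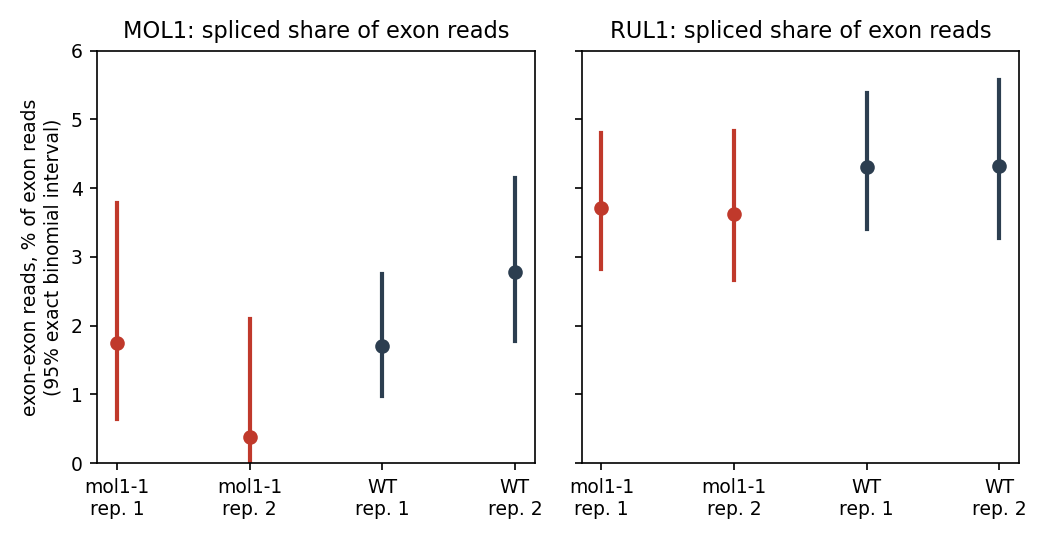
Exon-exon reads as a percentage of exon reads in each library for MOL1 (left) and RUL1 (right), with 95% exact binomial intervals. MOL1 ranges from 0.379% to 2.79% with wide, overlapping intervals, and RUL1 from 3.63% to 4.32%, also with overlapping intervals.

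The genes next to MOL1 were examined because a lesion can alter more than the gene it hits. Of the 10 nearest annotated loci, 5 on each side, 8 were tested and 0 were called, against 0.2% of all tested genes (edgeR; 1 of the 8, AT5G51310, had an unadjusted p under 0.05, as did 5.94% of all tested genes, and DESeq2 called 0). The closest is AT5G51340, which lies 133 bases from MOL1 and had 13.2 and 11.8 RPKM in mol1-1 and 12.3 and 13.3 RPKM in WT. Its log2 fold change was 0.0034 (SE 0.14, 95% interval -0.33 to 0.34), and its sign turned with the scaling. AT5G51310, 12786 bases away, had 0.570 and 0.564 RPKM in mol1-1 and 1.47 and 1.29 RPKM in WT, a log2 difference of -1.24 (SE 0.36, unadjusted p 0.0141, adjusted p 0.536). These are low levels, with 21 and 16 exon reads in mol1-1 and 45 and 36 in WT. SWI1 (AT5G51330), a gene of meiosis, lies between that gene and MOL1 and had 18 and 7 reads in mol1-1 and 35 and 16 in WT (adjusted p 0.937).

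Around RUL1, 6 of the 10 nearest loci were tested and 0 were called by edgeR or DESeq2, against 0.2% of all tested genes in edgeR. AT5G05140, 4630 bases away, had 28.8 and 22.8 RPKM in mol1-1 and 17.5 and 18.9 RPKM in WT, 0.54 higher in mol1-1 on the log2 scale (SE 0.17, adjusted p 0.609). The difference was 0.32 without mol1-1 replicate 1 and 0.72 without mol1-1 replicate 2 (adjusted p 0.281 and 0.0779). AT5G05190 had 3.97 and 4.53 RPKM in mol1-1 and 3.15 and 3.13 RPKM in WT (log2 fold change 0.46, SE 0.15, adjusted p 0.627). Both had groups without overlap and an unadjusted p under 0.05, at 0.0197 and 0.0221 in edgeR, as 33.7% and 5.94% of all tested genes had, and neither passed over all genes.

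**Figure D4:**
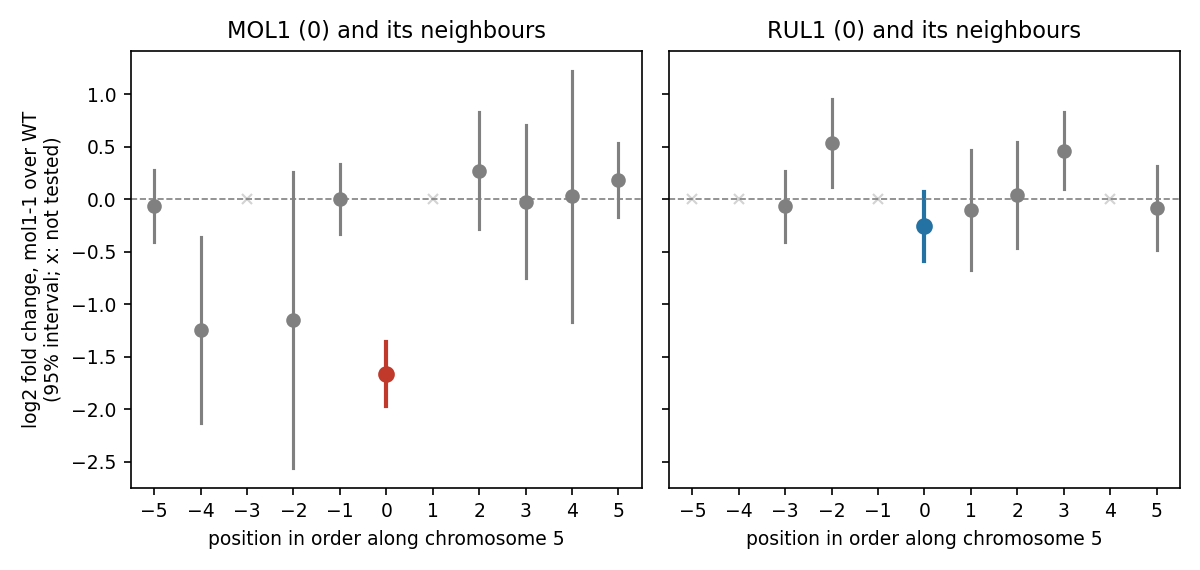
Log2 fold change of mol1-1 over WT with 95% intervals for MOL1 (left, red) and RUL1 (right, blue) at position 0 and for the 5 annotated loci on each side in chromosome order (grey). Crosses on the 0 line mark loci that were not tested and carry no value. MOL1 at -1.66 is the lowest point in its panel.

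The receptor relatives of each gene give its level some context. In WT, MOL1 at 9.59 ± 0.231 RPKM (SD, n = 2) was below 12 of 23 other subfamily XI receptors listed here, whose median was 10.4 RPKM. In mol1-1 it had 2.96 ± 0.00327 RPKM (SD, n = 2), below 17 of the 23, whose median was 9.61 RPKM. RUL1 was among the higher of the listed subfamily III genes. It had 20.7 ± 0.957 RPKM in mol1-1, below 5 of 23 others. In WT it had 25.3 ± 3.54 RPKM, below 3 of the 23 (SD, n = 2 each).

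Of the 23 listed subfamily XI genes 20 were tested, and 0 were called in either direction. Their median log2 fold change was -0.13, against -0.011 over all tested genes. Of these 20, 2 had an unadjusted p under 0.05 by edgeR, and DESeq2 called 0. Over all tested genes 0.2% were called and 5.94% had an unadjusted p under 0.05. PXY (AT5G61480) had 111 and 119 RPKM in mol1-1 and 111 and 117 RPKM in WT. Its log2 fold change was 0.045 (SE 0.16). BAM1 (AT5G65700), a relative of CLAVATA1, had 102 and 92.4 RPKM in mol1-1 and 107 and 109 RPKM in WT. RLK7 (AT1G09970), a receptor of stress peptides, had 64.0 and 54.5 RPKM in mol1-1 and 61.0 and 55.3 RPKM in WT. These 3 were the highest of the list, and none of them was called. CLV1 (CLAVATA1, AT1G75820) had 22.2 and 21.4 RPKM in mol1-1 and 27.9 and 29.7 RPKM in WT, without overlap, as for 33.7% of all tested genes. Its fold change was -0.37 on the log2 scale, with an SE of 0.13 and an adjusted p of 0.729.

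A few log2 fold changes in subfamily XI hung on single mutant libraries. PEPR1 and PEPR2, which encode receptors of danger peptides, had log2 fold changes of 0.94 and 1.09 without mol1-1 replicate 2. With that library PEPR1 and PEPR2 had 0.55 and 0.74 (edgeR adjusted p 0.973 and 0.811). Their levels were 14.3 and 7.66 RPKM and 4.48 and 2.60 RPKM in mol1-1, against 8.55 and 6.94 RPKM and 2.31 and 2.06 RPKM in WT. CEPR1, a receptor of C-terminally encoded peptides, had 12.3 and 6.94 RPKM in mol1-1 and 11.4 and 13.1 RPKM in WT. Its log2 fold change was -0.83 without mol1-1 replicate 1 and -0.31 with it. These 3 genes were chosen after their values were seen.

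Of the 23 listed subfamily III genes 16 were tested, and 0 were called, with a median log2 fold change of 0.025. Of these 16, 2 had an unadjusted p under 0.05 by edgeR, and DESeq2 called 0. The edgeR shares over all tested genes were the same 0.2% and 5.94%. PXC1 (AT2G36570), a receptor-like kinase known from secondary wall formation, was the most abundant, with 93.7 and 108 RPKM in mol1-1 and 95.8 and 103 RPKM in WT. AT2G26730 had 50.1 and 50.4 RPKM in mol1-1 and 53.8 and 53.1 RPKM in WT. LRR1 (AT5G16590) had 31.6 and 32.3 RPKM in mol1-1 and 26.3 and 28.7 RPKM in WT, which is 0.25 on the log2 scale (SE 0.13), and its adjusted p was 0.949. Without WT replicate 1 the value was 0.16. The pollen receptor genes PRK1 and PRK3 had 0 reads in all libraries.

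The pathway known to drive cambium division starts with TDIF, a peptide made in the phloem from CLE41 and CLE44, which binds PXY in the cambium and raises WOX4 and WOX14. All 13 genes of this module were tested and 0 were called, with a median log2 fold change of 0.045. By edgeR 0 had an unadjusted p under 0.05, and DESeq2 called 0. Over all tested genes edgeR called 0.2%, and 5.94% had such a p, with a median log2 fold change of -0.011. Among the ligand genes, CLE41 had 46.9 and 71.9 RPKM in mol1-1 and 61.7 and 53.5 RPKM in WT, so the mutant libraries lay on either side of WT. CLE44 had 4.41 and 4.95 RPKM in mol1-1 and 3.84 and 2.78 RPKM in WT. Its groups did not overlap, as for 33.7% of all tested genes. Its log2 fold change was 0.53 (SE 0.25, edgeR adjusted p 0.919). The transcription factor gene WOX4 had 22.2 and 32.0 RPKM in mol1-1 and 27.1 and 26.9 RPKM in WT. The interval of its log2 fold change ran from -0.41 to 0.47. WOX14 had 23.2 and 27.6 RPKM in mol1-1 and 26.4 and 19.95 RPKM in WT. BIN2, whose product is a kinase that binds PXY, had 87.8 and 98.6 RPKM in mol1-1 and 85.1 and 97.4 RPKM in WT.

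ERECTA receptors act beside PXY in the stem. Of 8 genes in that module 4 were tested and 0 were called, with a median log2 fold change of -0.77 (1 with an unadjusted p under 0.05 by edgeR, and DESeq2 called 0), beside 0.2% called and 5.94% with such a p over all tested genes. That median lies between the receptor genes ERL1 and ERL2, which had few reads, and the other two. ERL1 had 12 and 3 exon reads in mol1-1 and 16 and 19 in WT, a log2 difference of -1.37 (SE 0.64, adjusted p 0.915). ERL2 had 13 and 7 reads in mol1-1 and 35 and 15 in WT, a log2 difference of -1.42 (SE 0.56, unadjusted p 0.0445, adjusted p 0.817). Both were chosen after their values were seen. ER had 10.3 and 9.92 RPKM in mol1-1 and 12.4 and 11.05 RPKM in WT, with a log2 fold change of -0.18 (SE 0.12). SOBIR1, a receptor kinase gene linked to the same process, had 21.8 and 24.4 RPKM in mol1-1 and 19.4 and 20.4 RPKM in WT, with a log2 fold change of 0.25 (SE 0.12). The adjusted p-values were 0.997 and 0.938. EPFL4, which encodes a ligand of ERECTA, had 4 and 7 reads in mol1-1 and 7 and 1 in WT and was too low to be tested.

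LRR receptors of subfamily XI work with shorter co-receptors of the SERK and CIK families. All 9 co-receptor genes were tested and 0 were called, beside 0.2% of all tested genes in edgeR. Their median log2 fold change was -0.10, against -0.011 over all tested genes. An unadjusted p under 0.05 by edgeR was found for 0 of them, beside 5.94% of all tested genes, and DESeq2 called 0. BAK1 had 27.5 and 23.3 RPKM in mol1-1 and 28.1 and 29.8 RPKM in WT. CIK1 had 32.1 and 37.4 RPKM in mol1-1 and 35.0 and 33.6 RPKM in WT. CIK3 had 29.8 and 28.2 RPKM in mol1-1 and 34.0 and 31.8 RPKM in WT, without overlap, as for 33.7% of all tested genes. Its log2 fold change was -0.15 (SE 0.13, edgeR adjusted p 0.997). That log2 fold change was -0.23 without mol1-1 replicate 1 and -0.085 without mol1-1 replicate 2.

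Other cambium regulators gave 0 calls among 15 tested, beside 0.2% of all tested genes in edgeR, with a median log2 fold change of -0.072. Of the 15, 1 had an unadjusted p under 0.05 by edgeR, as did 5.94% of all tested genes, and DESeq2 called 0. The homeodomain genes HB15 and KNAT1 were high, HB15 with 128 and 107 RPKM in mol1-1 and 122 and 131 RPKM in WT. KNAT1 had 94.3 and 108 RPKM in mol1-1 and 108 and 109 RPKM in WT. Over the 6 lists together, 73 of 87 loci were tested, of which 8.22% had an unadjusted p under 0.05 and 35.6% had groups without overlap, against 5.94% and 33.7% of all tested genes, and the 95% half-width of a log2 fold change had a median of 0.39.

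**Figure D5:**
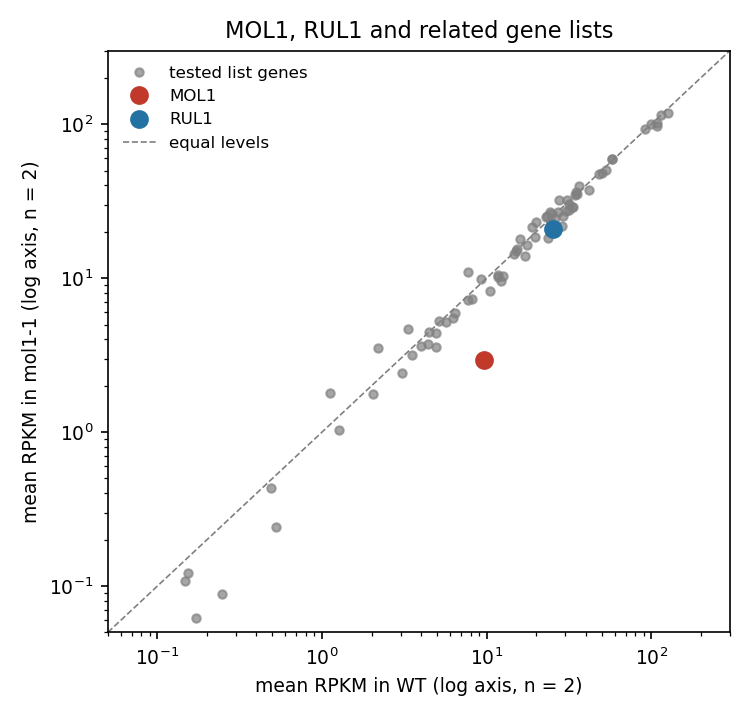
Mean RPKM in mol1-1 (vertical) against mean RPKM in WT (horizontal), both on log axes with n = 2, for MOL1 (red), RUL1 (blue) and the 73 tested genes of the receptor and cambium lists (grey). MOL1 lies well below the line of equal levels, at 2.96 against 9.59 RPKM, and RUL1 lies near it, at 20.7 against 25.3 RPKM.

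The likeness of other genes to each pattern was measured as the root-mean-square difference of log2 CPM, centred on each gene's mean, over the 4 libraries. For MOL1 the 3 closest genes were ABCG18 (AT3G55110) at 0.0973, AT2G38995 at 0.139 and IGMT5 (AT1G76790) at 0.152. ABCG18, which encodes a membrane transporter, had 0.618 and 0.585 RPKM in mol1-1 and 1.94 and 1.65 RPKM in WT, and an adjusted p of 0.127. ABCG18 was the only tested gene within 0.1 of MOL1, which ranked 34th from the lowest log2 fold change of 19024 tested genes. AT2G38995 had few reads, 16 and 12 in mol1-1 and 35 and 35 in WT. IGMT5 had 14 and 9 exon reads in mol1-1 and 30 and 33 in WT. Neither was called (edgeR adjusted p 0.484 for both). For RUL1, 1260 tested genes lay within 0.1, led by AT3G45050 at 0.0137, AT2G22900 at 0.0187 and AT5G26180 at 0.0187. MOL1 and RUL1 differed by 0.712, which placed MOL1 at 18328 in the order of genes by likeness to RUL1. These genes were picked by their likeness, so their values are descriptions.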

How the data were processed

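Polyadenylated RNA was sequenced. The authors deposited 1 table per library with read counts per locus: exon, gene, exon-exon and intron reads, in total and unique, per the file headers. The deposited RPKM equals exon reads per kilobase of exon scaled to the library's total gene reads, to a relative difference of at most 2.17e-14, and was used to describe levels. The deposited median coverage is a depth signal whose definition is not given. The submitters' processing notes name build TAIR10. The sources used here do not state aligner, counter or strand use. Sequences and gene models are from RefSeq TAIR10.1.

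The 5 rows without a locus (0.0586% to 0.0864% of exon reads) were left out and 2 repeated loci summed. Exon reads were fitted over all loci with edgeR 4.0.16 in R 4.3.3 (filterByExpr, TMM, quasi-likelihood, no covariate), adjusted by Benjamini-Hochberg over 19024 genes at a threshold of 0.05. Exon-exon and intron reads used the same library scaling. The SE is the log2 fold change divided by the square root of F. The edgeR fit of exon reads was tested on simulated data, and the other steps were not. Replicates differed by more than sampling noise (chi-square per degree of freedom 62.3 in mol1-1 and 28.9 in WT).

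Named genes were MOL1, RUL1, 5 neighbours on each side, the 3 genes most alike in pattern, each list's 3 highest members and called members, and 8 cambium genes. A search for the closest proteins was not run. The members and lists were chosen with earlier results of these data known. Alternatives were DESeq2 1.42.0, scaling by RLE, by upper quartile or not at all, a filter of 1 CPM in 2 libraries or none, a replicate block, each library left out, and unique exon or total gene reads.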

Additional observations from a re-analysis of the deposited data

How the results depend on the processing

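The log2 fold change of MOL1 ranged from -1.70 to -1.66 under DESeq2, other scaling, other filters, unique exon or total gene reads and the replicate block, and from -1.70 to -1.64 with 1 library left out, and it was called in each of these fits. That of RUL1 ranged from -0.29 to -0.25 and from -0.35 to -0.14, and it was called in none. The number of genes called was 38, but 290 with DESeq2, 141 with no filter, 136 with the replicate block, and 37 to 409 with 1 library left out (409 without mol1-1 replicate 1, 212 without mol1-1 replicate 2, 37 without WT replicate 1 and 89 without WT replicate 2).

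Spliced MOL1 reads gave a log2 fold change of -4.09 to -1.96 with 1 library left out, and the intron reads of RUL1 gave -1.31 to 0.33. The spliced share of MOL1 in mol1-1 minus WT was -1.18 percentage points, and -1.87 to -0.49 with 1 library left out. That of RUL1 was -0.64, and -0.68 to -0.60. The intron share ran from -0.11 to 0 for MOL1 and from -0.37 to 0.36 for RUL1. The log2 ratio of MOL1 to RUL1 ran from -1.53 to -1.29. In the fits of all 4 libraries, 0 members of any list were called. In subfamily XI, CEPR1 was called without mol1-1 replicate 1, at a log2 fold change of -0.83. PEPR1 and PEPR2 were called without mol1-1 replicate 2, at 0.94 and 1.09. Those 2 fits also called more genes in total than the main fit, as given above. The other 5 lists had 0 called members in every fit. In a fit of 3 libraries, the single library of a genotype is taken to vary as the others do.

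Both genotypes have replicates numbered 1 and 2, and no label says that the numbers pair. The sheets of the deposited workbooks number the mutant libraries 2 and 3 instead, by which mol1-1 replicate 1 would share a number with WT replicate 2. Deviations of same-numbered libraries correlated at -0.232. The replicate block gave MOL1 an adjusted p of 0.00763 and RUL1 1.00, changing no call of either. A block crossing the numbers, which sets mol1-1 replicate 1 with WT replicate 2 and was chosen after seeing the data, called 248 genes. Which numbering, if either, reflects a shared origin is not known.

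Among 39 other named genes tested, 15 changed sign in at least 1 fit, none with a call. AT5G51340 had -0.015 with upper-quartile scaling, -0.030 with no scaling, -0.0041 with no filter, -0.0014 at 1 CPM, -0.0011 with unique exon reads and -0.0050 with gene reads. AT5G51390 had -0.0020 with no scaling and -0.013 with the replicate block. With 1 library left out, the log2 fold change ran from -0.12 to 0.11 for AT5G51340, -0.47 to 0.42 for AT5G51390, -0.099 to 0.20 for RLK7, -0.22 to 0.24 for WOX4, -0.25 to 0.079 for HB15, -0.040 to 0.12 for CIK1, -0.036 to 0.15 for PXC1, -0.24 to 0.32 for CLE41, -0.065 to 0.20 for BIN2, -0.34 to 0.096 for CEV1, -0.23 to 0.26 for AT5G05180, -0.29 to 0.096 for AT5G05200, -0.196 to 0.047 for AT5G51300, -0.19 to 0.19 for AT5G51380 and -0.027 to 0.13 for PXY. ABCG18 was called with DESeq2 (adjusted p 0.00292), with no filter (0.0491) and without mol1-1 replicate 1 (0.0466). The cause was not tested.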
